A study of Mus musculus with 8 samples.

Results

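Fc receptors and the ITAM signaling genes around them were followed in microvascular cells from mice with and without LRP1 in the endothelium. The set held 9 genes chosen by name: the adaptors Fcer1g and Tyrobp, the IgG receptors Fcgr1, Fcgr2b, Fcgr3 and Fcgr4, the receptors Trem2 and Clec7a, and the kinase Syk. Of these, 8 had a row among the 22520 genes of the deposited table, and Clec7a was not analysed here. RNA sequencing covered 4 LRP1 KO and 4 WT libraries, each labelled as a mix from 3 organs (heart, liver and lung) of C57BL/6 mice aged 14 postnatal days. The study's methods describe cells picked with magnetic beads against PECAM-1 from mice with a floxed Lrp1 gene (LRP1 f/f) in both groups. The LRP1 KO mice also carried Cdh5-CreER, an inducible Cre recombinase driven by the promoter of the endothelial gene Cdh5, and WT littermates lacked it. Nothing in the labels says whether each library came from its own animals, so p-values measure only the spread between these libraries. The question addressed by the comparison was which transcripts change in endothelial cells once LRP1, a large endocytic receptor, is lost.

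Activating Fc receptors bind the constant part of antibodies and signal through a partner chain that carries an immunoreceptor tyrosine-based activation motif (ITAM). Src family kinases phosphorylate the ITAM, Syk docks on it, and Syk then activates adaptors, phospholipase C gamma and phosphoinositide 3-kinase. Receptors with an inhibitory motif (ITIM) recruit phosphatases that counter this signal. Most of these genes are known from macrophages, neutrophils and other leukocytes, whereas FcγRIIB, the product of Fcgr2b, is also a known receptor of liver sinusoidal endothelium.

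Values were taken to be FPKM (fragment counts scaled by transcript length and library size), quantile normalized across the 8 libraries by the authors, so depth is unknown and no counting error could be given. A difference is on the log2(FPKM + 1) scale, LRP1 KO minus WT, and was tested with limma on 11389 genes with at least 1 FPKM in at least 4 libraries. Such log2 differences understate the change of genes with low values. Lrp1 itself ran from 103 to 140 FPKM in WT and from 2.79 to 7.72 in LRP1 KO, so every library matched its label. Endothelial markers were present in every library. In bulk RNA, more cells of a type and more RNA per cell cannot be told apart.

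Positions are given on GRCm38 (GENCODE M21). Fcgr2b (chr1:170958617-170976547), Fcgr4 (chr1:171018920-171029761), Fcgr3 (chr1:171051174-171064935) and Fcer1g (chr1:171229572-171234365) are neighbours on chromosome 1, and Fcgr1 is at chr3:96282909-96293969. Tyrobp is at chr7:30413760-30417585, Syk at chr13:52583173-52648792 and Trem2 at chr17:48346401-48354147. Fcgr3 and Fcgr2b encode near-identical extracellular parts: 12.79% of the 50-base stretches of the longest coding Fcgr3 transcript also occur in Fcgr2b, and 4.96% of those of Fcgr2b occur in Fcgr3. How reads from these stretches were divided is not given in the sources used here, and an antisense gene, Gm38204, overlaps Fcgr2b. For the other 6 measured members no 50-base stretch was shared with another gene.

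Promoter sequences are shown for the receptors and for Fcer1g. RefSeq (GRCm38.p6) gave 300-base promoters, 250 before to 50 after the start, for 8 of the 9 genes, all but Tyrobp. The hexamer GAGGAA, read on either strand (TTCCTC on the other), was searched as the core of sites for PU.1, the myeloid ETS-family transcription factor. It occurred in at least 1 promoter of 5 of the 7 measured genes among them, against 31.3% of 27025 genes in the RefSeq table. A match is only a match of letters, and its part in the expression values was not tested. The 100 bases before a start are printed for 4 genes with a match and for 2 without, 5′ to 3′ along the gene, with the hexamer in capitals.
Fcgr1, chr3:96293970-96294069, minus strand: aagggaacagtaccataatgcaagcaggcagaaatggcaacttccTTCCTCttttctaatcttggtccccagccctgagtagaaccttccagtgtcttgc
Fcgr3, chr1:171059404-171059503, minus strand: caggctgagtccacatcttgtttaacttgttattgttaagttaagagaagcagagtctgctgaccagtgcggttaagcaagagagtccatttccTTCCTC
Fcgr4, chr1:171018826-171018925, plus strand: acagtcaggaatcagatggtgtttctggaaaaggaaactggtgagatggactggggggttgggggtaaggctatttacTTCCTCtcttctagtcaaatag
Trem2, chr17:48346301-48346400, plus strand: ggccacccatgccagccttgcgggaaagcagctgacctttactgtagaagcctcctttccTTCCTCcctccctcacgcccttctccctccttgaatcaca
Fcer1g, chr1:171234350-171234449, minus strand: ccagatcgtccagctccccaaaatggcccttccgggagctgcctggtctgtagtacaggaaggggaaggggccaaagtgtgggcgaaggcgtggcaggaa
Fcgr2b, chr1:170976072-170976171, minus strand: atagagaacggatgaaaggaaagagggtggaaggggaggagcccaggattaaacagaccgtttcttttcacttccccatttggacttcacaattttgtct
In these windows the hexamer began 55 bases before the start in Fcgr1, 6 in Fcgr3, 22 in Fcgr4 and 40 in Trem2. Fcgr1, Fcgr3 and Trem2 shared the longer run ttccTTCCTC. Syk had a match at the second of its 2 starts only, 9 bases before it, and Clec7a also had one. Fcer1g and Fcgr2b had no match in the searched window.

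All 8 measured members were higher in LRP1 KO, with no overlap between the groups. Of the 6 members that passed the filter on low values, Tyrobp, Fcer1g, Fcgr3, Fcgr4, Trem2 and Syk, all 6 rose at an adjusted p under 0.05 (limma, Benjamini-Hochberg over all genes tested), a call made for 6.27% of tested genes. Of these, 5 also rose at least 2-fold on this scale, against 1.12% of tested genes, and Syk missed that limit at 0.99. Groups did not overlap, with LRP1 KO higher, in 8.84% of all tested genes. The median difference of the 6 members was 1.67, and that of all tested genes was -0.01. Tyrobp, Fcer1g, Fcgr3 and Trem2 had at least 1 FPKM in all 4 WT libraries, whereas Fcgr4 had it in 2 and Syk in 3, so these passed the filter only with LRP1 KO libraries counted.

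**Figure D1:**
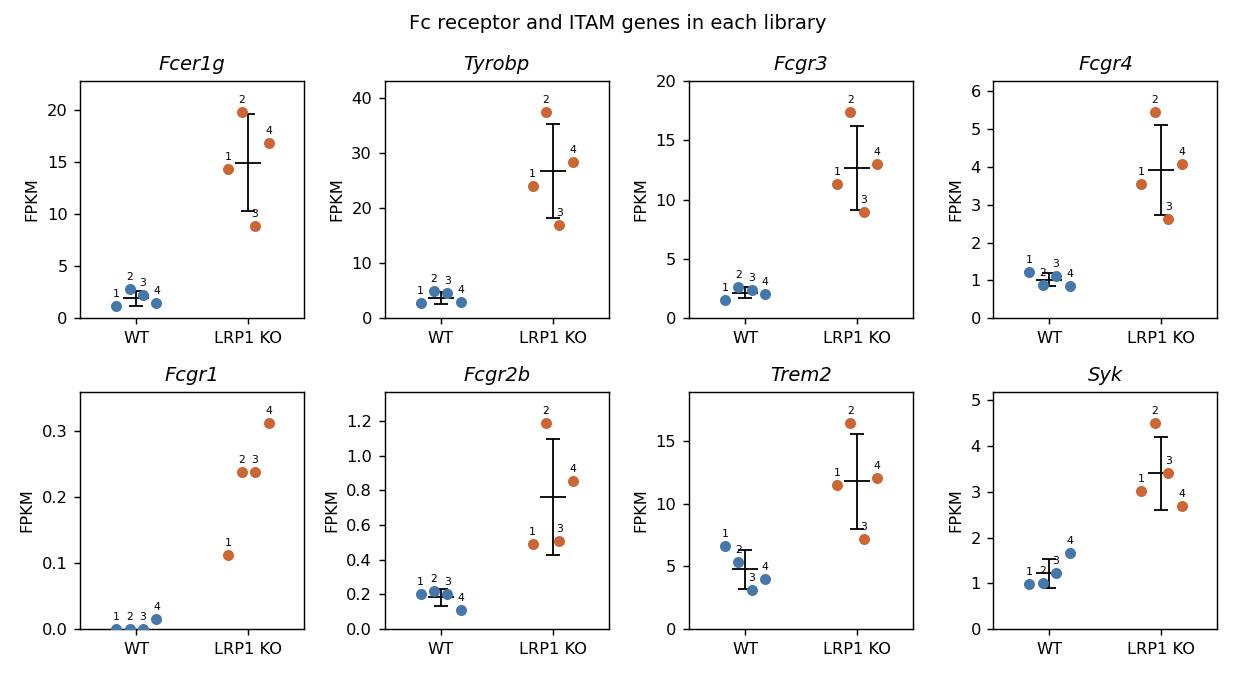
Each panel plots 1 gene in FPKM on a linear axis from 0, with points for libraries 1 to 4 of WT and of LRP1 KO, and with the mean ± SD of 4 libraries except for Fcgr1, which was listed at 0 in 3 WT libraries. In every panel the lowest LRP1 KO point lies above the highest WT point, and for Trem2 these points are 7.17 and 6.61 FPKM.

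On the log2(FPKM + 1) scale, the adaptors had the largest differences of the 6 tested members. Tyrobp encodes DAP12, the ITAM chain that carries TREM2 and several other myeloid receptors. Its WT values, in the order of libraries 1 to 4 used throughout, were 2.75, 4.88, 4.52 and 2.86 FPKM, and its LRP1 KO values were 24.1, 37.5, 17.0 and 28.4 FPKM. The lowest LRP1 KO library was 3.47 times the highest WT library. The means were 3.75 ± 1.10 and 26.7 ± 8.60 FPKM (SD, n = 4 each), and the log2 difference was 2.52 (95% interval 1.99 to 3.05, adjusted p = 0.000600, limma), the 8th largest rise of the 11389 tested genes.

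Fcer1g encodes the Fc receptor gamma chain, the ITAM subunit that activating IgG and IgE receptors need at the surface. WT libraries held 1.17, 2.79, 2.24 and 1.49 FPKM and LRP1 KO libraries held 14.3, 19.8, 8.83 and 16.9 FPKM. LRP1 KO library 3 was again the lowest of its group, and it was still 3.17 times the highest WT library. The log2 difference was 2.43 (95% interval 1.88 to 2.98, adjusted p = 0.000758, limma), from 1.92 ± 0.730 to 15.0 ± 4.66 FPKM (SD, n = 4 each).

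The activating IgG receptors followed at different levels. Fcgr3 encodes FcγRIII, a low-affinity receptor for immune complexes. WT values were 1.57, 2.65, 2.36 and 2.08 FPKM and LRP1 KO values were 11.3, 17.4, 8.99 and 13.0 FPKM. Its groups were separated by a factor of 3.40 at their nearest libraries, and the log2 difference was 2.09 (95% interval 1.68 to 2.49, adjusted p = 0.000476, limma). Fcgr4 encodes FcγRIV, which prefers the IgG2 subclasses. It measured 1.22, 0.879, 1.12 and 0.862 FPKM among WT libraries against 3.54, 5.46, 2.62 and 4.09 FPKM among LRP1 KO libraries, with a log2 difference of 1.26 (95% interval 0.89 to 1.62, adjusted p = 0.00275, limma). No library crossed between the groups for either receptor.

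Fcgr1, the gene of the high-affinity receptor FcγRI, was barely detected. The table lists it at 0 in WT libraries 1 to 3 and at 0.0151 FPKM in library 4, against 0.112, 0.238, 0.239 and 0.313 FPKM for LRP1 KO. Fcgr2b, the only IgG receptor of the set with an ITIM, had WT values of 0.204, 0.218, 0.201 and 0.110 FPKM and LRP1 KO values of 0.489, 1.19, 0.507 and 0.856 FPKM. The groups did not overlap for either gene. Both missed the filter, and an exact two-sided permutation test on log2(FPKM + 1) gave p = 0.0286 for each, the smallest that 4 against 4 libraries allow. Their log2 differences were 0.29 and 0.56. Among the 6637 genes too low to test but above 0 in some library, 5.38% had LRP1 KO higher without overlap. Known liver sinusoidal markers gave the context for Fcgr2b: Cd209b was listed at 0 in every library, and 3 of 10 such genes could be tested, of which 1 rose, Wnt2, at a log2 difference of 1.24 (adjusted p = 0.0347, limma). Stab1 ranged from 11.1 to 15.4 FPKM in WT and from 10.3 to 43.1 FPKM in LRP1 KO, and Lyve1 from 9.71 to 17.9 and from 8.83 to 40.8 FPKM. Of the 10, however, 4 were below 0.5 FPKM in every library. Besides Cd209b, these were Stab2 (at most 0.139 FPKM), Clec4g (at most 0.0486) and Dnase1l3 (at most 0.0107), named after their values were seen.

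Trem2 encodes a lipid-sensing receptor of tissue macrophages that signals through DAP12. It was the member with the highest WT level, at 6.61, 5.37, 3.09 and 3.99 FPKM, against 11.5, 16.5, 7.17 and 12.1 FPKM for LRP1 KO. The lowest LRP1 KO library was only 1.08 times the highest WT library. The log2 difference was 1.14 (95% interval 0.59 to 1.69, adjusted p = 0.0210, limma), and it did not pass without LRP1 KO library 1 (adjusted p = 0.0584), without LRP1 KO library 2 (0.0589) or without WT library 2 (0.0511), within a range of 0.0134 to 0.706 over all alternatives.

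Syk, the kinase that both adaptors recruit, had WT values of 0.973, 1.005, 1.22 and 1.67 FPKM and LRP1 KO values of 3.01, 4.51, 3.40 and 2.69 FPKM. Every LRP1 KO library was at least 1.61 times the highest WT library. The log2 difference was 0.99 (95% interval 0.66 to 1.31, adjusted p = 0.00482, limma).

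FPKM is scaled by transcript length, so levels can be ordered between genes. In WT the order of mean FPKM was Trem2, Tyrobp, Fcgr3, Fcer1g, Syk, Fcgr4, Fcgr2b and Fcgr1. Neighbours in that order overlapped except Tyrobp and Fcgr3, Fcgr4 and Fcgr2b, and Fcgr2b and Fcgr1. In LRP1 KO the order was Tyrobp, Fcer1g, Fcgr3, Trem2, Fcgr4, Syk, Fcgr2b and Fcgr1, with no overlap only between Trem2 and Fcgr4, Syk and Fcgr2b, and Fcgr2b and Fcgr1. Trem2 thus moved from the first to the fourth place, and Tyrobp and Fcer1g each moved up.

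Ratios between members within a library show whether they changed by unequal amounts. The planned comparison with Clec7a could not be made, which left 6 ratios, each tested on the per-library difference in log2(FPKM + 1) with an exact two-sided permutation test. The ratio of Trem2 to Tyrobp fell: in plain FPKM it was 2.40, 1.10, 0.684 and 1.39 in WT and 0.476, 0.439, 0.423 and 0.426 in LRP1 KO. The log2 difference was -1.38 (exact p = 0.0286, adjusted over the 6 ratios 0.0571), and all 4 LRP1 KO libraries were below all WT libraries. Fcgr3 against Fcer1g gave -0.34 (exact p = 0.0571, adjusted 0.0686) and Tyrobp against Fcer1g 0.09 (exact p = 0.171). On plain FPKM, Tyrobp was 1.75 to 2.35 times Fcer1g in WT and 1.68 to 1.92 times in LRP1 KO.

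The balance of activating to inhibitory IgG receptor depended on how low values were treated. With a pseudocount of 1, Fcgr3 rose more than Fcgr2b by 1.53 and Fcgr4 by 0.70 on the log2 scale (exact p = 0.0286 each, adjusted 0.0571). With a pseudocount of 0.1 the first was 0.94 (exact p = 0.0286) and the second 0.27 (exact p = 0.229). In plain FPKM, Fcgr3 was 7.70, 12.2, 11.7 and 18.9 times Fcgr2b in WT and 23.1, 14.6, 17.7 and 15.2 times in LRP1 KO, so the groups overlapped. For Fcgr4 against Fcgr2b the median plain ratio was 5.79 in WT and 4.97 in LRP1 KO, the opposite direction, with overlapping groups. Fcgr1 against Fcgr2b was -0.27 (exact p = 0.0571) with a pseudocount of 1 and 0.067 (exact p = 0.8) with 0.1. Its plain ratio was 0, 0, 0 and 0.137 in WT and 0.230, 0.200, 0.471 and 0.366 in LRP1 KO, higher in every LRP1 KO library. None of the 6 ratios was below 0.05 after adjustment.

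**Figure D2:**
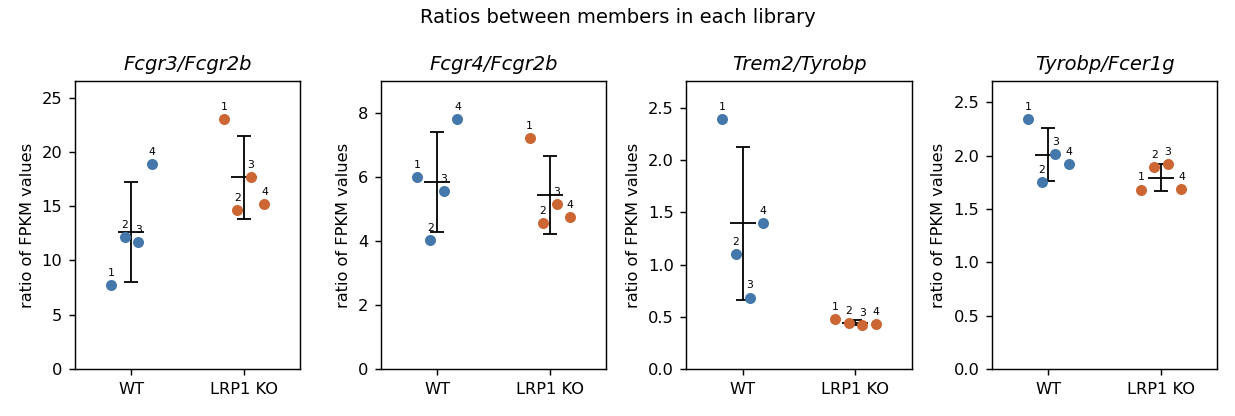
Each panel plots the ratio of the FPKM values of 2 members per library on a linear axis from 0, with points for libraries 1 to 4 of WT and of LRP1 KO and the mean ± SD of 4 libraries. Trem2 to Tyrobp is lower in every LRP1 KO library, at 0.423 to 0.476, while the other 3 ratios overlap between groups.

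The 4 LRP1 KO libraries stood in the same order, 2 above 4 above 1 above 3, for Tyrobp, Fcer1g, Fcgr3, Fcgr4 and Trem2. The other measured members had other orders: 2, 4, 3, 1 for Fcgr2b, 2, 3, 1, 4 for Syk and 4, 3, 2, 1 for Fcgr1. Tested macrophage markers, on average, stood in the order of the first 5. The mean log2(FPKM + 1) of 12 tested macrophage markers, a list without members, ran from 2.18 to 2.73 in WT. In LRP1 KO it was 4.03, 4.63, 3.61 and 4.54, again in the order 2, 4, 1, 3. The mean of all 20 listed markers was 1.33 to 1.71 in WT. In LRP1 KO that mean was 2.64, 3.01, 2.23 and 3.03, in the order 4, 2, 1, 3. Of the 12, 9 rose, where 6.27% of tested genes did, and none fell, and the median difference was 2.10. In this count, this median and the mean of the 12, Emr1 passed the filter through LRP1 KO alone. C1qa, C1qc and Laptm5, with 2, 3 and 3 WT libraries at 1 FPKM or more, passed it only with LRP1 KO libraries counted. Lyz2 and Ctss, a lysozyme and a lysosomal protease of myeloid cells, rose by 2.60 and 2.73 (adjusted p = 0.00205 and 0.000449, limma), and Cd14, a coreceptor for bacterial lipopolysaccharide, gave -0.47 (adjusted p = 0.136). The summed FPKM of all 20 markers was 105 to 132 in WT and 264 to 610 in LRP1 KO. Of the 20, 6 were below 0.5 FPKM in every library, Cx3cr1, Timd4, Clec4f and Cd163 among them. The mean of the 12 differed by 1.68 between the groups. The part of these cells in the members' rise was not tested.

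**Figure D3:**
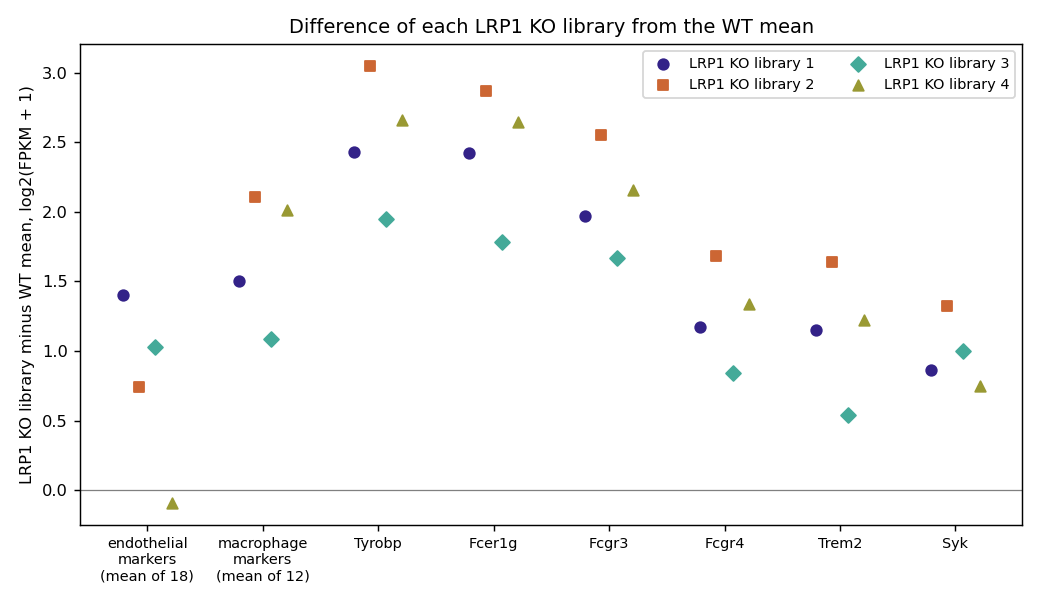
Points give each LRP1 KO library minus the WT mean in log2(FPKM + 1), for the mean of 18 endothelial markers, the mean of 12 macrophage markers and the 6 tested members. Library 2 is highest and library 3 lowest for the macrophage markers and all tested members but Syk, whereas the endothelial mean is highest in library 1 and at the WT level in library 4.

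With the mean of all 20 listed macrophage markers as a covariate, no member passed. Because this mean did not overlap between the groups, such a fit leaves little of the group difference to estimate. The differences were then 0.89 for Fcer1g (adjusted p = 0.125, range over its alternatives 0.000436 to 0.125), 1.07 for Tyrobp (0.102, range 0.000436 to 0.102) and 0.997 for Fcgr3 (0.0946, range 0.000436 to 0.0946). They were 0.51 for Fcgr4 (0.378, range 0.00135 to 0.378), 0.41 for Trem2 (0.706) and 0.87 for Syk (0.209, range 0.00163 to 0.209). All 6 stayed positive.

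Of 18 tested endothelial markers 1 rose past the threshold, where 6.27% of tested genes did. The mean of the 18 was 3.01 to 3.18 in WT and 4.53, 3.86, 4.15 and 3.03 in LRP1 KO, so library 4 was at the WT level while its Tyrobp and Fcer1g were the second highest of the group. All 18 had a positive difference, and the one that passed was Eng, at 0.94 (adjusted p = 0.0279, limma). Cd34 and Emcn gave 0.20 and 1.57 (adjusted p = 0.215 and 0.0560). With the mean of all 20 listed endothelial markers as a covariate, Tyrobp, Fcer1g, Fcgr3 and Fcgr4 still passed. Trem2 (1.27, adjusted p = 0.173, limma) and Syk (0.94, adjusted p = 0.0788, limma) then did not. Without LRP1 KO library 4, 6 of 6 members passed both limits.

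Markers of other leukocytes were low or mixed, and their part in the result was not tested. All 8 natural killer cell markers were below 0.5 FPKM in every library, Eomes, Prf1 and Klrd1 included. Of 10 neutrophil markers, S100a9, Ly6g and Retnlg were listed at 0 throughout. S100a8, with 1 WT library at 1 FPKM or more, passed the filter only with LRP1 KO libraries counted and rose by 0.94 (adjusted p = 0.0475), Mmp8 gave -0.57 (adjusted p = 0.136), and Camp was below 0.5 FPKM. Of the mast cell and basophil markers, Gata2, which endothelial cells also express, rose by 0.86 (adjusted p = 0.0365, limma). Hdc gave -0.16 (adjusted p = 0.668), Kit was at most 1.68 FPKM and Tpsb2 was listed at 0. Of the B cell markers, Pax5 was listed at 0 in all libraries, Ms4a1 was at most 0.0267 FPKM, and Cd37, also known from other leukocytes, rose by 1.004 (adjusted p = 0.00150, limma) and passed the filter through LRP1 KO alone. Of the dendritic cell markers 1 could be tested, Zbtb46, at -0.09 (adjusted p = 0.497). Itgax was at most 0.166 FPKM in WT and at least 0.458 FPKM in LRP1 KO, and Batf3 was at most 0.424 FPKM in LRP1 KO and at least 0.430 FPKM in WT.

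Downstream of the members, changes were small and went both ways. Of 30 kinases, adaptors and enzymes that act after ITAM phosphorylation, 18 were tested. Of these, 4 rose and 2 fell, where 6.27% of tested genes rose and 7.31% fell, and the median difference was 0.06. Lyn, a Src family kinase that phosphorylates ITAMs and ITIMs, rose by 0.87 (adjusted p = 0.0118, limma) from 3.14 to 6.69 FPKM on average, with library 4 lowest in LRP1 KO at 4.33 FPKM. Fyn, another Src family kinase, rose by 0.46, the adaptor Lat2 by 0.70 and Plcg2, the phospholipase of myeloid and B cells, by 0.51. Its relative Plcg1 fell by 0.34 (adjusted p = 0.0118, limma), from 32.6 to 25.6 FPKM, and Pik3r1, a regulatory subunit of phosphoinositide 3-kinase, fell by 0.27. Lat2 passed the filter through LRP1 KO alone, and Plcg2, with 3 WT libraries at 1 FPKM or more, only with LRP1 KO libraries counted. Over all genes too low to test but above 0 in some library, 5.38% were higher in LRP1 KO without overlap. Of the 12 such genes here, 7 were. Among them were Fgr, at a mean of 0.120 FPKM in LRP1 KO, and Vav1 and Pik3ap1, at 0.751 and 0.773 FPKM, named after their values were seen. Without 1 library, Lyn and Plcg1 passed in all 8 fits, whereas Fyn and Pik3r1 passed in 2 of 8 each, and the list's 6 calls were 2 without LRP1 KO library 2 or 3 and 3 without library 1.

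Some inhibitory genes rose, led by Lilrb4, and most of those tested did not pass. Of 21 ITIM receptors, phosphatases and other inhibitors, 14 were tested. Of these, 6 rose, where 6.27% of tested genes did, and none fell, with a median difference of 0.29. Of the 6, 3 had no WT library at 1 FPKM, passed the filter through LRP1 KO alone and had to differ: Lilrb3, Cd300lf and Inpp5d. Lilrb4, with 3 WT libraries at 1 FPKM or more, and Ptpn6, with 1, also passed only with LRP1 KO libraries counted, which leaves Cblb. Lilrb4, the gene of the ITIM receptor gp49B, had WT values of 0.885, 1.38, 1.59 and 1.10 FPKM and LRP1 KO values of 11.004, 13.6, 7.51 and 9.40 FPKM, far from overlapping. It rose by 2.33 (95% interval 1.96 to 2.70, adjusted p = 0.000357, limma), about as much as Fcer1g. Lilrb3, the older symbol of Pirb, rose by 1.63, and this receptor belongs to a family of near-identical genes whose reads may be divided between them. Cd300lf, an ITIM receptor for lipids, rose by 1.49. Inpp5d, the phosphatase SHIP1 that FcγRIIB recruits, measured 0.238, 0.329, 0.516 and 0.345 FPKM among WT libraries against 3.09, 1.79, 1.34 and 2.23 FPKM among LRP1 KO libraries, a rise of 1.17 (adjusted p = 0.00382, limma). Lilrb3, Cd300lf and Inpp5d could not be tested without an LRP1 KO library. Ptpn6, the phosphatase SHP-1, rose by 0.63 (adjusted p = 0.0493) with overlapping groups, and Cblb, a ubiquitin ligase, by 0.30. When each library was left out in turn, Ptpn6 passed 3 times and Cblb once in 8 fits, and the list's 6 calls were 1 without LRP1 KO library 1 or 2 and 2 without library 3. Of 7 genes too low to test, 5 were higher without overlap, against 5.38% of all such genes above 0 in some library. These 5 were Dok3, Cd300a, Clec12a, Clec4a2 and Cd22, named after their values were seen.

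Pecam1 has ITIMs too and is the antigen of the bead selection. It measured 7.96, 8.05, 8.76 and 6.80 FPKM in the WT and 36.3, 18.5, 26.2 and 6.72 FPKM in the LRP1 KO libraries. Library 4 lay below every WT library, and the difference of 1.16 did not pass (adjusted p = 0.0814, limma). Without library 4 it was 1.61 and passed (adjusted p = 0.000975, the lowest of the 8 such fits, whose highest was 0.197).

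Other ITAM-linked receptors were mostly out of range. Of 26, 20 were below 0.5 FPKM in every library and 4 were listed at 0 throughout: Fcer1a, the ligand-binding chain of the IgE receptor, Cd3e of T cells, Ncr1 of natural killer cells and Siglech of plasmacytoid dendritic cells. The single gene tested, Clec4d, a C-type lectin that pairs with the Fc receptor gamma chain, had WT values of 0.521, 1.34, 1.29 and 0.874 FPKM and LRP1 KO values of 6.89, 10.8, 3.13 and 8.27 FPKM. It passed the filter only with LRP1 KO libraries counted. Its rise was 1.97 (adjusted p = 0.00515, limma), and its libraries stood in the order 2, 4, 1, 3. Of the 25 untested genes, 5 were higher without overlap, against 5.38% of all untested genes above 0 in some library. These 5 were Clec4e, Clec4n, Clec5a, Cd300lb and Nfam1, named after their values were seen.

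Of 10 Fc receptor genes outside the ITAM family, 2 were tested and 1 rose, where 6.27% of tested genes did. Fcgrt encodes FcRn, which returns IgG from endosomes to the blood in endothelium and macrophages. It was far above every member, at 72.0, 93.8, 79.1 and 75.2 FPKM among WT libraries against 47.5, 61.5, 53.3 and 73.1 FPKM among LRP1 KO libraries, and the groups overlapped only through LRP1 KO library 4. The difference of -0.45 did not pass (adjusted p = 0.0517, limma), and without that library it was -0.56 and did (adjusted p = 0.00777, in a range up to 0.139 over the 8 such fits). Trim21, a cytosolic antibody receptor, rose by 0.34 (adjusted p = 0.0404, limma) from 4.01 to 5.36 FPKM, a call kept in 1 of 8 fits when each library was left out in turn. The other 8 genes of this list, such as Fcrl5 and Fcrla, were below 0.5 FPKM in every library.

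**Figure D4:**
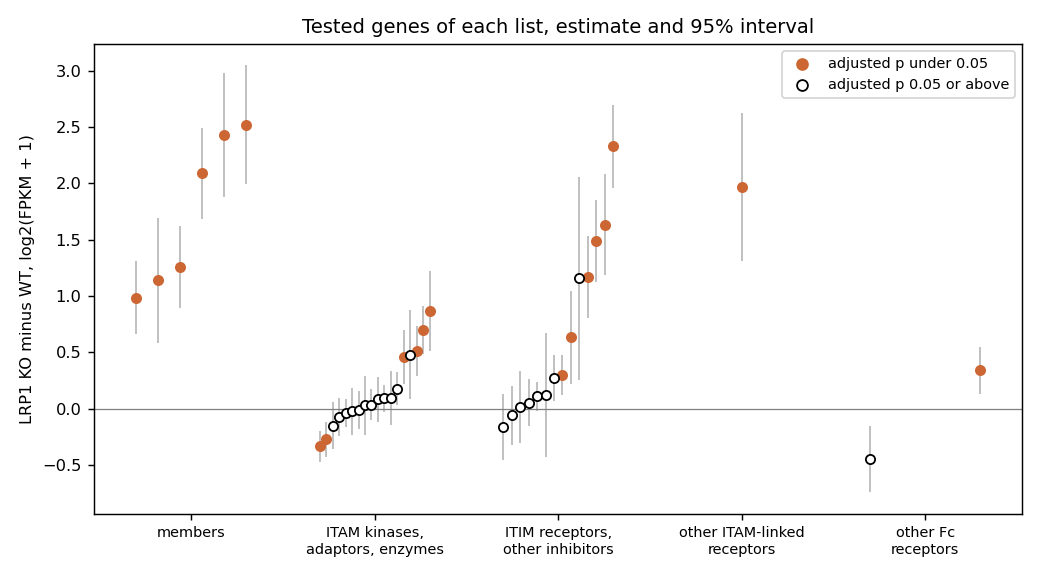
Points give the log2(FPKM + 1) difference, LRP1 KO minus WT, with its 95% interval for the tested genes of the member set and of 4 related lists, filled where the adjusted p was under 0.05. All 6 members are filled and lie at or above 0.99, most ITAM kinases and enzymes lie near 0, and 6 of the 14 inhibitors are filled, up to 2.33 for Lilrb4, of which all but Cblb passed the filter only with LRP1 KO libraries counted.

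The genes whose pattern over the 8 libraries was most like a member's were found by Pearson's r on log2(FPKM + 1) among 11383 tested non-members. These values share the group difference and the libraries, so they are descriptions. Closest to Fcer1g were Cfp (r = 0.998), Msr1 (0.994) and Emr1 (0.994), the genes of properdin, a macrophage scavenger receptor and the F4/80 antigen. Closest to Tyrobp were Cfp (0.996), Atp6v0d2 (0.996) and Plek (0.996). Fcgr2b was nearest to Nckap1l (0.974), Ms4a7 (0.974) and Fam18b (0.973). Syk had other neighbours: Synpo (0.984), Tmem106a (0.983) and the extracellular matrix gene Fbln2 (0.977), at 416 to 552 FPKM in WT and 625 to 842 FPKM in LRP1 KO.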

How the data were processed

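RNA sequencing was made with a TruSeq kit from 8 libraries, 4 per group, grouped by their titles. The submitters' processing notes name TopHat2, Cufflinks and mm10. The authors deposited 1 table, taken to hold FPKM because Cufflinks gives that unit. Its header names only gene columns and libraries, so the unit is inferred. The column sums (503571 to 504112) and the same highest value in every library (7793) show quantile normalization, which hides depth, so count tests could not be used. Precision rests on the spread between libraries. The study's methods describe other tools (STAR, featureCounts) for separate tissues, and these were not taken for this table.

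Genes with at least 1 FPKM in at least 4 libraries (11389 of 22520) were fitted as log2(FPKM + 1) with limma 3.58.1 in R 4.3.3, with a variance trend and the group as the only term, and p-values were adjusted by Benjamini-Hochberg over all of them. Calls used an adjusted p under 0.05, with or without a 2-fold limit. The fit was tested on simulated data. Single values were compared with exact two-sided permutation tests. Identifiers matched GENCODE M21 for 21740 genes.

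Members and gene lists were chosen with earlier results of these data known. Lists covered ITAM effectors, inhibitors, other ITAM-linked receptors, other Fc receptors, and markers of macrophages, neutrophils, mast cells and basophils, natural killer, B and dendritic cells, endothelium and liver sinusoid. Named genes were all members, Lrp1, Pecam1, Fcgrt, called genes of each pathway list (at most 6), the 3 most abundant of each marker list, and the 3 closest non-members of Fcer1g, Tyrobp, Fcgr2b and Syk. Further names were chosen after their values were seen. Some list members are not reported here. Alternatives were a pseudocount of 0.1, no filter, median-ratio rescaling, no variance trend, a replicate block, macrophage or endothelial score covariates, and leaving out each library.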

Additional observations from a re-analysis of the deposited data

Results flagged for a closer look

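Of 28 groups of 4 libraries tested for a library far from the others, 3 were flagged, and chance flags about 1 in 20 such groups. All 3 concerned WT library 4 and the 2 members at the lowest levels. Fcgr1 was highest there at 0.0151 FPKM, with the other 3 WT libraries listed at 0. Fcgr2b was lowest there at 0.110 FPKM, against 0.201 to 0.218 in the other 3. The log2 ratio of Fcgr1 to Fcgr2b was accordingly highest there, at -0.13.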

How the results depend on the processing

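Of 90 refits of the 6 tested members, 79 kept direction and side of the threshold and 11 kept direction but no longer passed. The 11 were 6 with the macrophage covariate, 2 with the endothelial covariate (Trem2 1.27, Syk 0.94) and 3 of Trem2 without 1 library. With the macrophage covariate the estimates were Fcer1g 0.89, Tyrobp 1.07, Fcgr3 0.997, Fcgr4 0.51, Trem2 0.41 and Syk 0.87, and 0 members, 8 genes in all (8 past both limits) and 0 genes of each pathway list passed. With the endothelial covariate 172 genes (95 past both limits), 1 ITAM effector and 3 inhibitors passed, against 1547 (184 past both limits), 6 and 6.

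Leaving out each library gave 5 to 6 members past the adjusted p and 4 to 6 past both limits, 433 to 2959 genes (113 to 312 past both limits), 2 to 7 effectors, 1 to 5 inhibitors and 0 to 2 other Fc receptors. The highest of these gene counts came without LRP1 KO library 4, and inhibitors fell to 1 without LRP1 KO library 1 or 2, where 11 rather than 14 could be tested. Trim21 lost its call in 7 of the 8 such fits. Without 1 library, Trem2 ranged from 0.97 to 1.34, Fcgr1 from 0.25 to 0.33 (exact p = 0.0571 without each WT library), Trem2 against Tyrobp from -1.61 to -1.13 (exact p = 0.0571 without each LRP1 KO library) and Fcgr1 against Fcgr2b from -0.35 to -0.16 (exact p = 0.0286 without LRP1 KO library 3, at -0.35).

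With no filter, 11 effectors, 3 other ITAM-linked receptors and 0 other Fc receptors passed, and so did Fcgr1 and Fcgr2b (adjusted p = 0.0185 and 0.0429, limma). With a pseudocount of 0.1, Fcgr1 against Fcgr2b turned to 0.067, Tyrobp against Fcer1g turned to -0.12 and Fcgr4 against Fcgr2b fell to 0.27. With median-ratio rescaling, Fcgr1 against Fcgr2b was -0.27 and passed (exact p = 0.0286). The cause of these moves was not tested. Deviations of same-numbered libraries correlated at 0.158, 0.141, 0.340 and -0.312. These correlations do not settle whether the numbers pair the libraries. With the replicate block, 6 members, 1013 genes and 0 other Fc receptors passed. Depth is unknown, so the precision of Fcgr1 and Fcgr2b, all below 1.2 FPKM, cannot be judged from counts.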
